A study of Oryza sativa with 3 samples.

Results

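Small RNA libraries of rice were examined here for 8 conserved microRNA (miRNA) families that act in development and are less abundant than the leading conserved families, namely miR160, miR164, miR171, miR172, miR319, miR390, miR393 and miR394. Members were all known rice precursors that carry one of these family numbers in their name, which gave 8 of 281 known families, 29 of 516 known precursors and 356 of 9961 distinct sequences with reads at a known precursor. The libraries came from Ov199, an overexpression line that carries the coding sequence of OsNAR2.1 behind a ubiquitin promoter (pUbi-OsNAR2.1), from an OsNAR2.1 RNAi line, and from NP, the untransformed wild type Nipponbare. OsNAR2.1 is the partner protein of high-affinity nitrate transporters. Plants were field grown, and each library was made from RNA of leaves, flowers and stems that had been pooled at blooming. Each transgenic genotype was represented by 1 line and each line by 1 library, so a difference below has no replicate check. The libraries hold small RNA only, so the level of OsNAR2.1 was not measured in them.

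Plant miRNAs are cut by a Dicer-like enzyme from the stem of a hairpin precursor, and the strand that is kept guides an Argonaute protein to mRNAs with a nearly complementary site. Most targets of the 8 families are regulators of development. In the auxin pathway, miR393 targets the TIR1 and AFB auxin receptors, miR160 targets auxin response factors (ARF), and miR390 starts the production of TAS3 trans-acting small RNAs, which in turn target other ARF genes. Among the others, miR164 targets NAC transcription factors, miR319 TCP factors, miR171 GRAS factors of the SCARECROW-like type, miR172 AP2 factors and miR394, known best from Arabidopsis, an F-box protein. The seed (bases 2 to 8 from the 5′ end) weighs heavily in target pairing.

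The sequences on which the results turn are shown as they were read, written as DNA from 5′ to 3′, with the seed in capitals. Each is the most read sequence of an arm of its family's precursors or differed between libraries, except the first miR164 line and the miR171 3′ line, the known mature forms, which were added after their values were seen. The miR319 forms with a first c carry the seed TTGGACT and those with a first t the seed TGGACTG, and all miR393 5′ forms share the seed CCAAAGG.
miR164, mature form: tGGAGAAGcagggcacgtgca
miR164, MIR164f upstream form: cGCGAGGTggagaagcagggc
miR164, MIR164f 3′ form: cATGTGCCcttcttctccacc
miR164, MIR164d form: tGCTGGAGaagcagggcacgt
miR319, 22 nt form: cTTGGACTgaagggtgctccct
miR319, 21 nt form with first t: tTGGACTGaagggtgctccct
miR319, 21 nt form with first c: cTTGGACTgaagggtgctccc
miR319, 5′ form: aGAGCGTCcttcagtccactc
miR319, inner stem form: aGCTGCCGactcattcaccca
miR393, 21 nt form: tCCAAAGGgatcgcattgatc
miR393, 22 nt form with T at base 21: tCCAAAGGgatcgcattgattt
miR393, 21 nt form with T at base 21: tCCAAAGGgatcgcattgatt
miR393, 15 nt 5′ form: tCCAAAGGgatcgca
miR393, 15 nt 3′ form: tCAGTGCAatccctt
miR171, MIR171c 5′ form: gGATATTGgtgcggttcaatc
miR171, MIR171b 5′ form: gGATATTGgggcggttcaatc
miR171, MIR171i 3′ form: tTGAGCCGcgtcaatatctct
miR171, 3′ mature form: tGATTGAGccgtgccaatatc
miR390: aAGCTCAGgagggatagcgcc
miR394: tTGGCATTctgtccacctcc

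The files held 94154 aligned reads of Ov199, 62724 of RNAi and 49341 of NP. Levels are normalized counts, which are reads per 1000000 aligned reads, so 1 read was worth 10.6, 15.9 and 20.3 normalized counts. Reads of the 8 families numbered 1799 in Ov199, 889 in RNAi and 776 in NP. They made up 1.91% of the aligned reads in Ov199 (95% Wilson interval 1.83 to 2.00%). The share was 1.42% in RNAi (1.33 to 1.51%) and 1.57% in NP (1.47 to 1.69%). Aligned reads are those placed at known or predicted precursors, not all reads of a library. Of the 29 precursors, 28 were detected in Ov199, 25 in RNAi and 27 in NP. Intervals allow for counting error only, with reads taken as independent. Reads copied by PCR are not independent molecules, so intervals can be too narrow and p values too small even for that error. Because each library pools 3 organs, less of an organ in the pool and a lower level in that organ cannot be told apart.

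miR319 was the most read of the 8 families, with 862 reads in Ov199, 390 in RNAi and 340 in NP, which are 9155, 6218 and 6891 normalized counts. miR393 followed with 467, 198 and 151 reads, or 4960, 3157 and 3060 normalized counts, and miR164 with 221, 160 and 183 reads, or 2347, 2551 and 3709. The order of these families differed between the libraries, because miR393 stood above miR164 in Ov199 with intervals that did not meet, while in NP miR164 was the higher and the intervals did meet. miR171 had 108, 66 and 46 reads (1147, 1052 and 932 normalized counts), miR390 had 68, 34 and 21 (722, 542 and 426), and miR160 had 41, 30 and 19 (435, 478 and 385). miR394, with 19, 7 and 7 reads, and miR172, with 13, 4 and 9 reads, were at the lower edge of what this depth can measure, with 3 reads as the limit that a count of 0 allows. miR171 stood above miR390 with intervals that did not meet in any library, while the neighbours from miR390 downward had intervals that overlapped in at least 1 library.

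**Figure D1:**
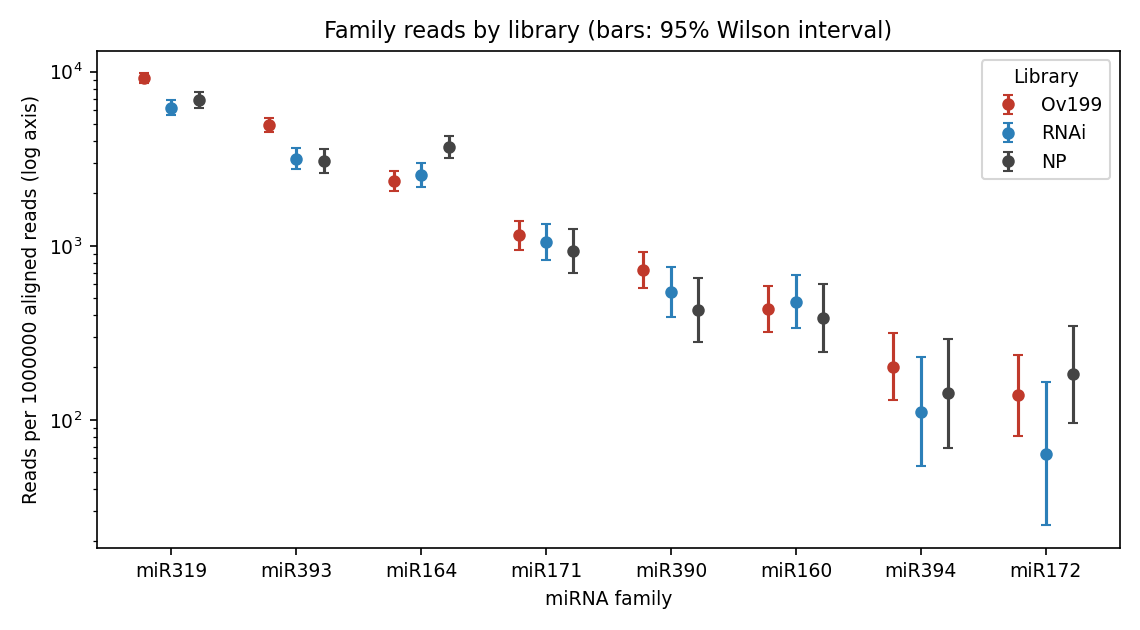
Normalized counts (reads per 1000000 aligned reads, log axis) of the 8 families in the Ov199, RNAi and NP libraries, with 95% Wilson intervals as bars. For miR164 the NP point at 3709 lies above the Ov199 point at 2347 and the RNAi point at 2551, and for miR393 the Ov199 point at 4960 lies above the others.

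The 3 comparisons were Ov199 against NP, RNAi against NP and RNAi against Ov199, which ask which families differ where OsNAR2.1 is raised or lowered. Those against NP share the NP library. Reads of each family and all other aligned reads were compared with Fisher's exact test (two-sided), adjusted by Benjamini-Hochberg over all known families with a threshold of 0.05, a test that compares the libraries and not the lines. In Ov199 against NP, 3 of 8 families passed, where 18.9% of all 259 tested families did. miR319 and miR393 were higher, as were 6.95% of all families, and miR164 was lower, as were 12% of all families. In RNAi against NP, 1 of 8 passed, miR164, beside 9.8% of 255 families, and it was lower, as were 3.53% of all. None of the 8 passed as higher there, where 6.27% of all families did. In RNAi against Ov199, 2 of 8 passed, miR319 and miR393, beside 18.2% of 264 families. Both were lower, as were 6.44% of all families, and none of the 8 was called higher, where 11.7% of all were. No family went past 2-fold in Ov199 against NP (normalized count + 10 scale), where 45.2% of all families did. In the other comparisons only miR172 did, at 0.38 for RNAi against NP, where 40.8% of all families went past 2-fold, and at 0.498 for RNAi against Ov199, where 48.9% did, and with exact alignments alone it was past 2-fold in neither. These backgrounds hold every family with a read in either library, and at very low counts a single read can pass 2-fold. For the precursor MIR164c, 0 reads in Ov199 and 1 in NP gave a fold of 0.33. The shares of all families past 2-fold therefore do not show that the 8 families were unusually stable. The median fold of the 8 families was 1.28 for Ov199 against NP, 0.967 for RNAi against NP and 0.717 for RNAi against Ov199, beside 0.956, 1.06 and 1.10 for all families tested.

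**Figure D2:**
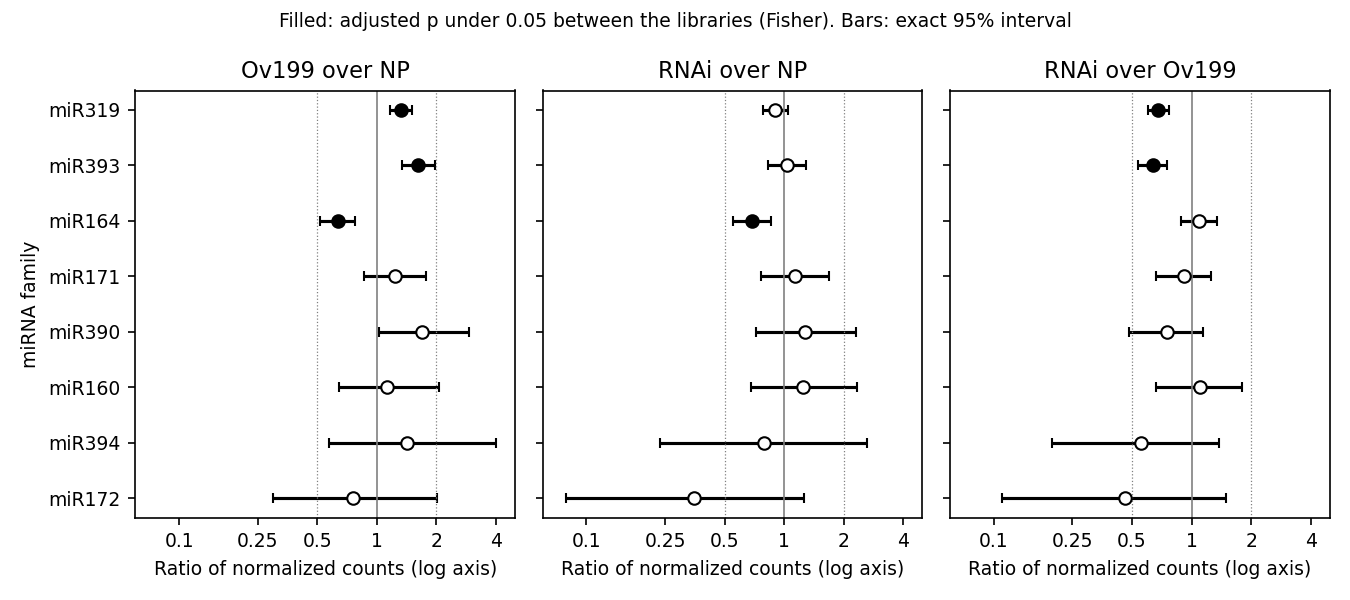
Ratios of normalized counts (log axis) of the 8 families for the 3 comparisons, with exact 95% intervals as bars and filled points where the adjusted p was under 0.05. Dotted lines mark ratios of 0.5 and 2. miR164 lies left of 1 against NP in both panels, and miR319 and miR393 lie right of 1 for Ov199 over NP and left of 1 for RNAi over Ov199.

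Among precursors, 5 of 29 passed the test in Ov199 against NP (MIR164f, MIR319a, MIR319b, MIR393a and MIR393b), where 19% of all 485 did. In RNAi against NP 2 of 27 passed (MIR164f and MIR319a), where 15.5% of 478 did, and in RNAi against Ov199 3 of 28 passed (MIR319b, MIR393a and MIR393b), where 20.9% of 493 did. Past 2-fold were 6 of 29, 6 of 27 and 7 of 28 precursors in these comparisons, beside 42.5%, 43.5% and 46% of all precursors, and none of these member precursors passed the test. The background again holds every precursor with a read in either library, down to 1 read. Single sequences were tested where they had 10 or more reads in the pair of libraries, which left 33, 19 and 33 of the 356. Of these, 7, 5 and 6 passed, beside 19.9%, 18.4% and 21.2% of all sequences tested at known precursors. All the called precursors and all but 1 of the called sequences belonged to miR164, miR319 and miR393, the families with the most reads.

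Within the auxin pathway, miR393, which lowers the auxin receptors, was higher in the Ov199 library than in either of the others. Its normalized count was 1.62 times that of NP (exact 95% interval 1.35 to 1.96, Fisher's exact test, adjusted p = 1.54e-06). RNAi and NP had 3157 and 3060 normalized counts, a ratio of 1.03 (0.83 to 1.28, Fisher's exact test, adjusted p = 0.996), and the RNAi count was 0.636 times that of Ov199 (0.536 to 0.753, Fisher's exact test, adjusted p = 6.86e-07). The most read precursor, MIR393b, had 465 reads in Ov199, 198 in RNAi and 151 in NP, and MIR393a had 243, 103 and 77. These are largely the same reads, since 241, 103 and 77 reads aligned at both precursors, so the 2 loci cannot be told apart for them. The MIR393b ratios were 1.61 for Ov199 over NP (Fisher's exact test, adjusted p = 1.81e-06) and 0.639 for RNAi over Ov199 (adjusted p = 1.04e-06), and those of MIR393a were 1.65 (adjusted p = 0.000786) and 0.636 (adjusted p = 0.000865). MIR393a lost its call for Ov199 over NP with exact alignments alone (Fisher's exact test, adjusted p = 0.279), and that for RNAi over Ov199 when shared reads were divided equally (adjusted p = 0.0592).

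The miR393 reads were of several kinds. The 21 nt form had 105 reads in Ov199, 34 in RNAi and 32 in NP, a ratio of 1.72 for Ov199 over NP (Fisher's exact test, adjusted p = 0.0351) and of 0.486 for RNAi over Ov199 (adjusted p = 0.00191). In 2 of 8 other settings the first of these lost its call, with adjusted p values up to 0.0559. The most read form, of 22 nt, differs from the precursor by C21T, counted from the 5′ end of the read with the precursor base first, and had 113, 37 and 33 reads. Its ratios were like those of the 21 nt form, at 1.79 for Ov199 over NP (Fisher's exact test, adjusted p = 0.0153) and 0.491 for RNAi over Ov199 (adjusted p = 0.00132).

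The shorter T form, 21 nt with C21T, had a different pattern, with 27 reads in Ov199 and 19 in RNAi but 2 in NP. Its ratio to NP was 7.07 in Ov199 (1.78 to 61.4, Fisher's exact test, adjusted p = 0.00942) and 7.47 in RNAi (1.80 to 66.2, Fisher's exact test, adjusted p = 0.0105), both resting on the 2 reads of NP. The 15 nt 5′ form had 1 read in Ov199, 9 in RNAi and 7 in NP, and RNAi exceeded Ov199 by a ratio of 13.5 (1.87 to 592, Fisher's exact test, adjusted p = 0.0119). The 15 nt 3′ form had 47, 23 and 11 reads and did not pass for Ov199 over NP, with a ratio of 2.24 (1.15 to 4.79, Fisher's exact test, adjusted p = 0.0585).

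Among reads from the main miR393 start that reached base 21, a T stood there in 57.4% of the Ov199 reads (143 of 249, 95% Wilson interval 51.2 to 63.4%), 60.9% of the RNAi reads (56 of 92, 50.7 to 70.2%) and 50.7% of the NP reads (36 of 71, 39.3 to 62.0%). These intervals overlapped, and the difference between the shares was not tested. Over all miR393 reads, a T that mismatched the precursor within the last 2 bases was present in 40.3% in Ov199, 34.3% in RNAi and 28.5% in NP. The same class held 3.19%, 2.42% and 2.33% of the reads at all known precursors, and at most 0.905% of the miR164 or miR319 reads of a library. Only in miR160 did it also exceed 10% of a library's reads, with 9 of 41 in Ov199, 4 of 30 in RNAi and 1 of 19 in NP.

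miR160, which targets ARF genes, had 41 reads in Ov199, 30 in RNAi and 19 in NP. Ratios were 1.13 for Ov199 over NP (0.642 to 2.06, Fisher's exact test, adjusted p = 0.983) and 1.24 for RNAi over NP (0.677 to 2.33, Fisher's exact test, adjusted p = 0.826). The lengths of these reads differed between libraries. Reads of 18 nt or shorter were 8 of the 41 Ov199 reads (19.5%, 95% Wilson interval 10.2 to 34.0%), 14 of the 30 RNAi reads (46.7%, 30.2 to 63.9%) and 16 of the 19 NP reads (84.2%, 62.4 to 94.5%), and the Ov199 and NP intervals did not overlap. With reads of 20 to 24 nt alone there were 31 in Ov199, 14 in RNAi and 3 in NP, and Ov199 exceeded NP by 4.81-fold on the normalized count + 10 scale (Fisher's exact test, adjusted p = 0.0103). No miR160 sequence had 10 reads over the libraries. The most read precursor, MIR160b, had 31, 20 and 13 reads.

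miR390, the trigger of TAS3 small RNAs, came from 1 precursor and had 68 reads in Ov199, 34 in RNAi and 21 in NP. The Ov199 count was 1.70 times that of NP (1.03 to 2.92), which did not pass after adjustment (Fisher's exact test, adjusted p = 0.145). It passed only when the adapter-trimmed reads were taken as library totals (adjusted p = 0.0363). RNAi stood between the others, at 1.27 times NP (0.718 to 2.31, Fisher's exact test, adjusted p = 0.795) and 0.75 times Ov199 (0.482 to 1.15, Fisher's exact test, adjusted p = 0.434). The main miR390 form, of 21 nt, held 46, 27 and 18 reads.

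miR164, which limits NAC factors of organ boundaries and lateral root growth in Arabidopsis, was lower in both transgenic libraries than in NP. Its ratio to NP was 0.633 in Ov199 (0.518 to 0.774, Fisher's exact test, adjusted p = 7.34e-05) and 0.688 in RNAi (0.553 to 0.855, Fisher's exact test, adjusted p = 0.00781). RNAi and Ov199 had 2551 and 2347 normalized counts, a ratio of 1.09 (0.881 to 1.34, Fisher's exact test, adjusted p = 0.709). Of its 6 precursors, MIR164f held most reads, 189 in Ov199, 144 in RNAi and 162 in NP, with ratios to NP of 0.611 (0.493 to 0.759, Fisher's exact test, adjusted p = 7.78e-05) and 0.699 (0.555 to 0.881, Fisher's exact test, adjusted p = 0.0142). The RNAi call was lost when reads with several places were divided equally among them (adjusted p = 0.0818). Each of the other precursors had 44 reads or fewer in a library and none of them passed.

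The reads of MIR164f were mostly not of the known mature form. The upstream form, which starts 7 nt before it at base 22 of the precursor, had 94 reads in Ov199, 75 in RNAi and 93 in NP, that is 998, 1196 and 1885 normalized counts. It passed against NP in Ov199, at a ratio of 0.53 (0.393 to 0.713, Fisher's exact test, adjusted p = 0.000237), and in RNAi, at 0.634 (0.462 to 0.869, adjusted p = 0.0244). The mature form, shared with MIR164a and MIR164b, had 33, 16 and 23 reads, or 350, 255 and 466 normalized counts, and did not pass in any comparison. Among exact reads at the 2 starts, the upstream one held 74.0% of the Ov199 reads (95% Wilson interval 65.8 to 80.9%), 79.8% of the RNAi reads (70.6 to 86.7%) and 78.3% of the NP reads (70.1 to 84.8%). These shares had overlapping intervals and were not tested against each other. On the 3′ arm of MIR164f the main form had 9, 12 and 9 reads. The MIR164d form had 8 reads in Ov199, 1 in RNAi and 9 in NP, and RNAi was lower than NP by a ratio of 0.0874 (0.00199 to 0.631, Fisher's exact test, adjusted p = 0.0379), which rests on 1 read.

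**Figure D3:**
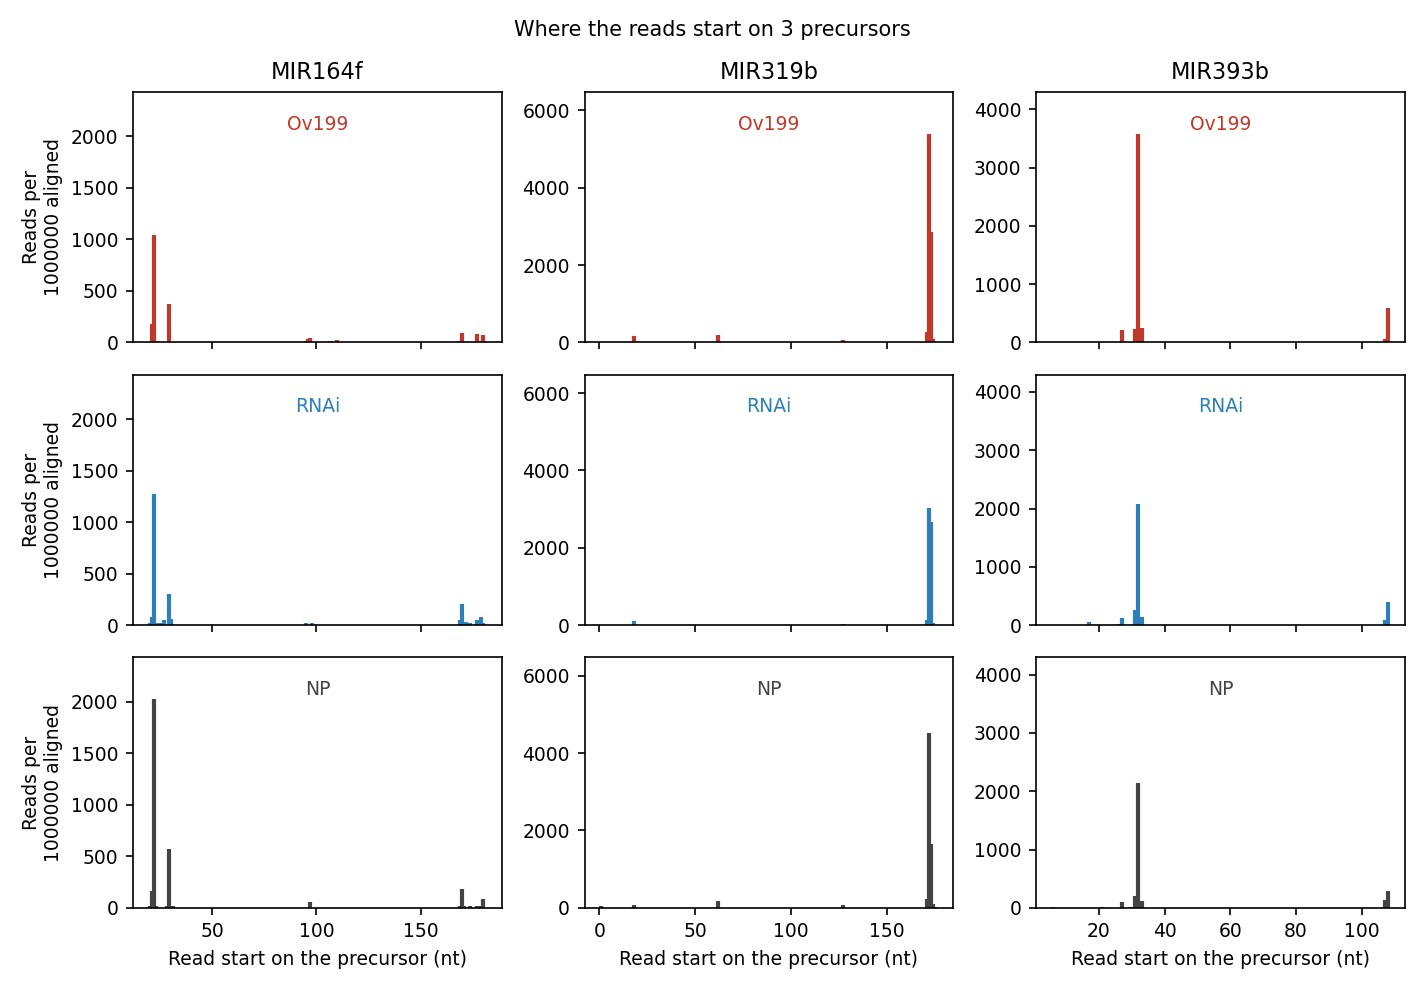
Start positions of reads on MIR164f, MIR319b and MIR393b (x axis, nt from the start of the precursor) in normalized counts (y axis) for the Ov199, RNAi and NP libraries. On MIR164f the start at base 22 is above that at base 29 in every library, and on MIR319b the 2 neighbouring main starts are nearest in height in RNAi.

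miR319, which restrains TCP factors of leaf growth, was higher in the Ov199 library. Its normalized count was 1.33 times that of NP (1.17 to 1.51, Fisher's exact test, adjusted p = 7.34e-05). RNAi and NP did not pass, at a ratio of 0.902 (0.778 to 1.05, Fisher's exact test, adjusted p = 0.574), and RNAi was lower than Ov199 by a ratio of 0.679 (0.601 to 0.766, Fisher's exact test, adjusted p = 1.46e-09). With reads of 20 to 24 nt alone RNAi was also lower than NP (fold 0.813, Fisher's exact test, adjusted p = 0.0483). MIR319b held nearly all reads, 858 in Ov199, 381 in RNAi and 338 in NP, and its ratios were 1.33 for Ov199 over NP (Fisher's exact test, adjusted p = 7.76e-05) and 0.667 for RNAi over Ov199 (adjusted p = 2.9e-10). No miR319 sequence aligned at a precursor of miR159, a family of related sequence (0 shared sequences).

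Against NP, the 2 main forms of miR319 differed in opposite directions in RNAi. The 22 nt form, found at MIR319b only, had 448 reads in Ov199, 177 in RNAi and 204 in NP, that is 4758, 2822 and 4134 normalized counts. RNAi was lower than NP at 0.683 (0.555 to 0.839, Fisher's exact test, adjusted p = 0.0021) and lower than Ov199 at 0.593 (0.496 to 0.707, Fisher's exact test, adjusted p = 4.17e-08), while Ov199 over NP was 1.15 (0.973 to 1.36, Fisher's exact test, adjusted p = 0.267). The 21 nt form with first t had 183, 128 and 50 reads, or 1944, 2041 and 1013 normalized counts, so both transgenic libraries lay above NP and near each other. Its ratio to NP was 1.92 in Ov199 (1.40 to 2.68, Fisher's exact test, adjusted p = 0.000271) and 2.01 in RNAi (1.44 to 2.85, Fisher's exact test, adjusted p = 0.000231). This form aligns at MIR319a as well as MIR319b, and 293 of 297, 174 of 183 and 96 of 98 reads at MIR319a were also counted at MIR319b.

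MIR319a therefore showed the pattern of that form, with a ratio to NP of 1.59 in Ov199 (1.26 to 2.02, Fisher's exact test, adjusted p = 0.00049) and of 1.47 in RNAi (1.14 to 1.90, Fisher's exact test, adjusted p = 0.0162). The RNAi call was lost in 3 of 9 other settings, with adjusted p values up to 0.17. Among exact MIR319b reads from the 2 neighbouring starts, the upstream one, which gives the seed TTGGACT, held 66.2% of the Ov199 reads (481 of 727, 95% Wilson interval 62.6 to 69.5%), 52.6% of the RNAi reads (183 of 348, 47.3 to 57.8%) and 74.7% of the NP reads (210 of 281, 69.3 to 79.5%). The RNAi interval lay below those of Ov199 and NP, and the intervals of Ov199 and NP met only at their ends. The 21 nt form with first c had 25, 3 and 2 reads, a ratio of 6.55 for Ov199 over NP (1.63 to 57.1, Fisher's exact test, adjusted p = 0.0135) and of 0.18 for RNAi over Ov199 (0.0348 to 0.59, Fisher's exact test, adjusted p = 0.0107).

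Reads from other places on MIR319b were few. The 5′ form had 12 reads in Ov199, 3 in RNAi and 3 in NP. The inner stem form, at bases 62 to 82, had 11, 0 and 6 reads and was lower in RNAi than in Ov199 (Fisher's exact test, adjusted p = 0.0251). The exact interval of the RNAi over Ov199 ratio reached up to 0.598. With 3 reads taken as the floor of the RNAi library, the inner stem form was 2.44-fold lower. That value leaves out the counting error of the 11 Ov199 reads, so it is not a lower limit. This form also aligned at a predicted precursor outside the family, so its place of origin is uncertain.

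miR171, which targets GRAS factors of shoot branching in Arabidopsis, had 108 reads in Ov199, 66 in RNAi and 46 in NP. Ratios were 1.23 for Ov199 over NP (0.864 to 1.78, Fisher's exact test, adjusted p = 0.562), 1.13 for RNAi over NP (0.763 to 1.68, Fisher's exact test, adjusted p = 0.879) and 0.917 for RNAi over Ov199 (0.665 to 1.26, Fisher's exact test, adjusted p = 0.855). Its most read precursor, MIR171c, had 58, 21 and 16 reads. Most reads came from the 5′ arm and not from the 3′ arm that carries the mature form. Arms were split here at the midpoint of the stretch of the precursor that reads covered. The 3′ arm held 34.3% of the Ov199 reads (37 of 108, 95% Wilson interval 26.0 to 43.6%), 19.7% of the RNAi reads (13 of 66, 11.9 to 30.8%) and 17.4% of the NP reads (8 of 46, 9.09 to 30.7%), with overlapping intervals. The 3′ mature form had 9, 5 and 1 reads and the MIR171i 3′ form 10, 4 and 2. The 5′ forms of MIR171c and MIR171b share their seed but had different values, 29, 14 and 13 reads for MIR171c and 9, 9 and 16 for MIR171b. The MIR171b 5′ form was the 1 called sequence of the family, lower in Ov199 than in NP at 0.295 (0.115 to 0.708, Fisher's exact test, adjusted p = 0.0183).

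miR172, which targets AP2 factors of flowering and floret fate, was the least read over the 3 libraries together, though not in NP. Its 13 reads in Ov199, 4 in RNAi and 9 in NP gave ratios of 0.757 for Ov199 over NP (0.299 to 2.01, Fisher's exact test, adjusted p = 0.766) and 0.35 for RNAi over NP (0.0787 to 1.25, Fisher's exact test, adjusted p = 0.459). Differences of this size were not detectable at this depth. The most read precursor, MIR172d, had 10, 4 and 8 reads. miR394 came from 1 precursor, and its main form, of 20 nt, had 13 reads in Ov199, 3 in RNAi and 3 in NP. The family ratio was 1.42 for Ov199 over NP (0.573 to 4.00, Fisher's exact test, adjusted p = 0.766) and 0.787 for RNAi over NP (0.235 to 2.63, Fisher's exact test, adjusted p = 0.996).

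**Figure D4:**
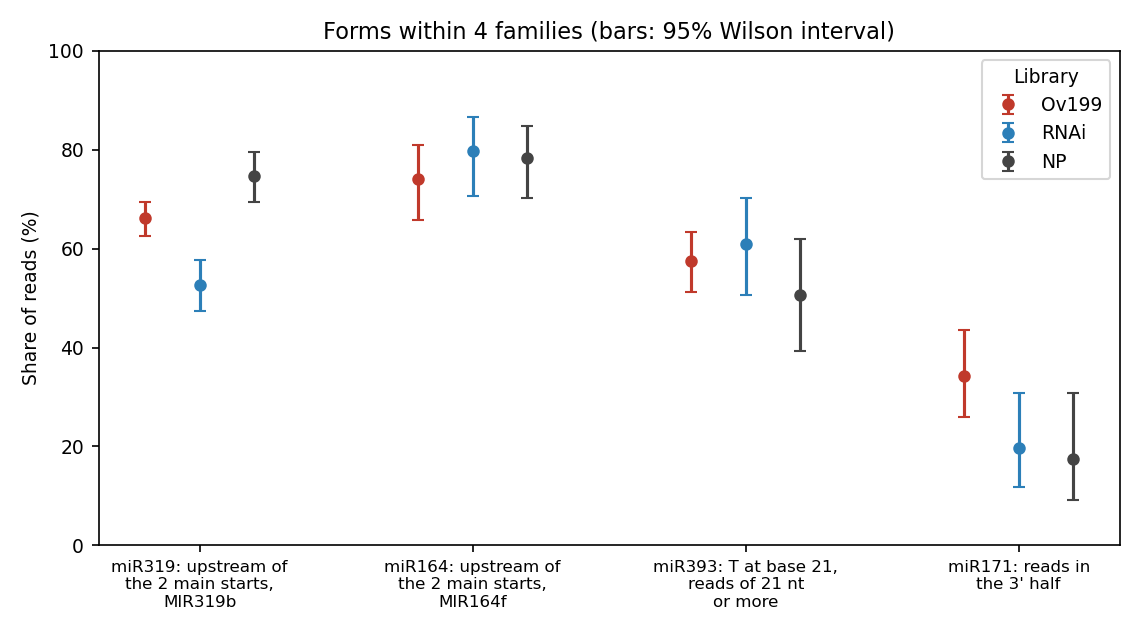
Shares of reads (y axis, %) of 4 forms in the Ov199, RNAi and NP libraries, with 95% Wilson intervals as bars. For the upstream miR319 start the RNAi point at 52.6% lies below Ov199 at 66.2% and NP at 74.7%, and for the other forms the intervals overlap.

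The 8 families also differed from each other in read length. Reads of 21 nt led in miR164 (79.6% in Ov199, 80.0% in RNAi and 85.2% in NP), miR171 (72.2%, 77.3% and 80.4%) and miR390 (72.1%, 82.4% and 90.5%). In miR319 the 22 nt class led, with 55.0% of the Ov199 reads (95% Wilson interval 51.7 to 58.3%), 47.7% of the RNAi reads (42.8 to 52.6%) and 62.9% of the NP reads (57.7 to 67.9%), which mirrors its 22 nt form. In miR393, reads of 18 nt or shorter made up 26.1%, 34.8% and 32.5%. Reads of 24 nt, the size of siRNAs that guide DNA methylation, were 0.611% of the 8 families' reads in Ov199, 1.12% in RNAi and 0.644% in NP, against 10.5%, 13.0% and 13.2% at all known precursors. The 5′ arm gave most reads of miR164 (78.8 to 84.7%), miR390 (85.3 to 94.1%) and miR393 (84.3 to 86.3%), and the 3′ arm gave 95% to 95.6% of those of miR319.

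**Figure D5:**
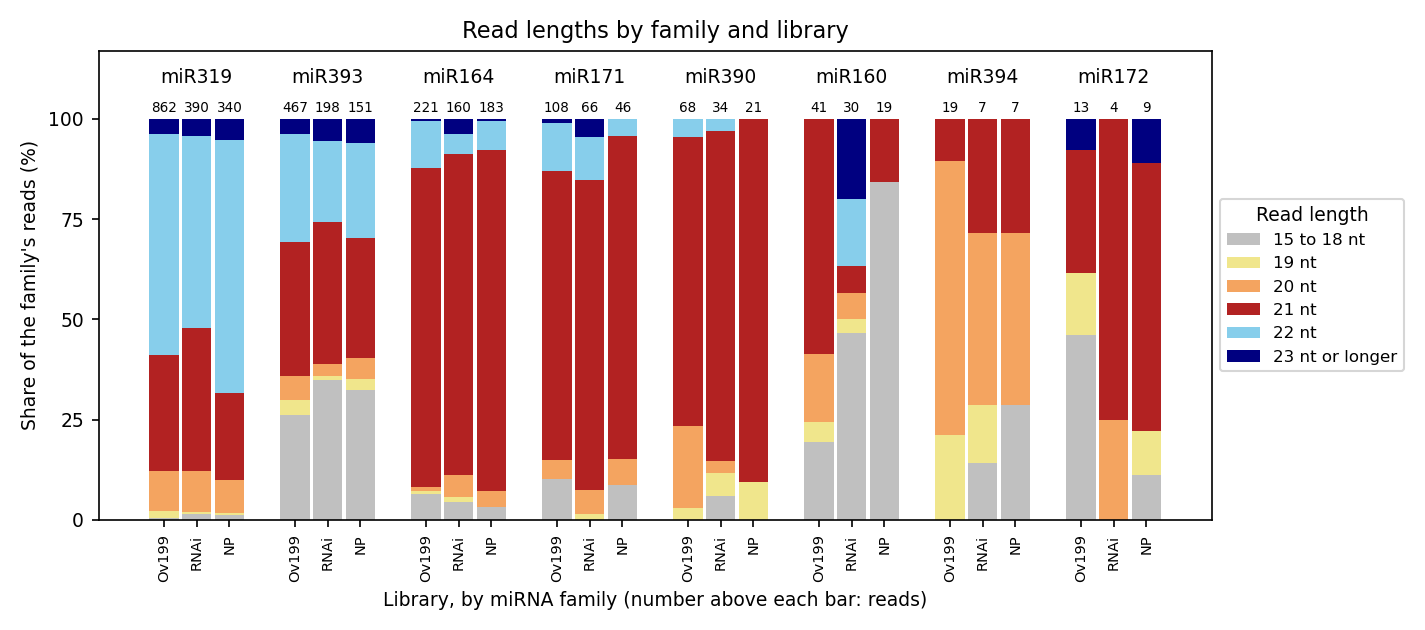
Share of each family's reads (y axis, %) by read length in the Ov199, RNAi and NP libraries, with the number of reads above each bar. The 22 nt class is largest in miR319, short reads of 15 to 18 nt are frequent in miR393, and in miR160 they make up 19.5% in Ov199, 46.7% in RNAi and 84.2% in NP.

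Among 5 other conserved families taken for comparison, miR156, miR159, miR167 and miR396 passed against NP in both transgenic libraries and were higher there. miR156, with 733 reads in Ov199, 523 in RNAi and 208 in NP, was more abundant than miR319 in RNAi only. In Ov199 their ratios to NP were 1.85, 1.23, 1.39 and 1.35, and in RNAi they were 1.98, 1.08, 1.35 and 1.22, while none of the 8 families passed as higher in RNAi than in NP. miR319 and its relative miR159 both passed as higher in Ov199 than in NP. In RNAi against NP, miR159 passed as higher (1.03 to 1.12, Fisher's exact test, adjusted p = 0.00647), where miR319 had a ratio of 0.902 and did not pass, and the difference between these families was not tested. This miR319 ratio covers 2 main forms that differed in opposite directions. The 22 nt form was at 0.683 and the 21 nt form with first t at 2.01. miR166, the most read family, passed in both comparisons with NP, lower in Ov199 at a ratio of 0.956 (Fisher's exact test, adjusted p = 7.72e-05) and higher in RNAi at 1.04 (Fisher's exact test, adjusted p = 0.0117). miR164 was the only one of these 13 families that passed as lower than NP in both libraries, and both comparisons share the NP library. Of all families tested, 12% passed as lower in Ov199 and 3.53% in RNAi, and how many did so in both was not counted.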

How the data were processed

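The authors trimmed the reads, collapsed identical ones and aligned them to known rice precursors (miRBase names) and to their predicted ones, with at most 1 mismatch, inserted or deleted base, and deposited raw counts, 1 for every distinct sequence. The settings of the aligner are not given in the sources used here. Reads of 15 to 36 nt were present. Family counts used each sequence once, and precursor counts used it at each precursor where it aligned. Normalized counts were reads per 1000000 aligned reads, with 10 added for folds and a fold threshold of 2. Fisher's exact test (scipy 1.17.1, Python 3.11.15), two-sided, with Benjamini-Hochberg adjustment over all known families, precursors or sequences, was tested on simulated data. Ratios have exact and shares Wilson 95% intervals. edgeR 4.0.16 and DESeq2 1.42.0 gave only alternative library totals.

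The Ov199 library was grouped by its labelled line, and the RNAi and NP libraries by their titles. The line tag of the RNAi library, Ni, is not explained in the sources used here, so its group rests on the title alone. The 49341 to 94154 aligned reads per library set the precision. Named were the precursor with most reads in each family, the most read sequence of each arm with 10 or more reads, and every called precursor or sequence. The members and lists were chosen with earlier results of these data known. Genome positions were not used here. Alternatives covered library totals, pseudocount, low and single reads, mismatches, read length and shared reads.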

Additional observations from a re-analysis of the deposited data

How the results depend on the processing

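The 6 called family differences (miR164 in each transgenic library against NP, then miR319 and miR393 in Ov199 against NP, then both in RNAi against Ov199) kept their direction and call in all 11 alternatives, with folds of 0.589 to 0.75, 0.603 to 0.696, 1.28 to 1.57, 1.37 to 1.92, 0.563 to 0.695 and 0.528 to 0.646 in that order. The pseudocount settings among the 11 do not enter the test and cannot reverse a direction, so they were no check of these calls. In Ov199 against NP, miR393 stayed only just under the threshold with exact alignments (fold 1.37, Fisher's exact test, adjusted p = 0.0469). There, miR164 reached an adjusted p of 0.0357 with adapter-trimmed totals (Fisher's exact test). Counts moved in several settings, and the cause was not tested beyond the setting itself. With reads of 20 to 24 nt, 2 families went past 2-fold in Ov199 against NP in place of 0, 2 in place of 1 in RNAi against NP, 2 passed the test in place of 1 in RNAi against NP, and 14 precursors went past 2-fold in place of 6 in Ov199 against NP. With a pseudocount of 100, 0 families went past 2-fold in either RNAi comparison, and the precursors past 2-fold were 1 in Ov199 against NP and 0 in each RNAi comparison. With exact alignments, 0 families went past 2-fold in either RNAi comparison, and 4 precursors in place of 7 in RNAi against Ov199. With 10 or more reads, 3, 3 and 4 precursors went past 2-fold in Ov199 against NP, RNAi against NP and RNAi against Ov199. Without sequences of 1 read, 0 families went past 2-fold in RNAi against NP, and 7 precursors passed the test in RNAi against NP in place of 2 and 7 in RNAi against Ov199 in place of 3. With adapter-trimmed totals, 2 families went past 2-fold in RNAi against Ov199, and 8 precursors passed the test in Ov199 against NP in place of 5 and 6 in RNAi against Ov199. TMM totals gave 5 precursors in RNAi against Ov199, and dividing shared reads equally gave 0 in RNAi against NP. Folds that crossed 1, none of them called, were for miR160 in RNAi against NP 0.783 without single reads and in RNAi against Ov199 0.972 (TMM), 0.912 (adapter-trimmed), 0.64 (20 to 24 nt) and 0.55 (without single reads), for miR164 in RNAi against Ov199 0.961 (TMM) and 0.901 (adapter-trimmed), for miR172 in Ov199 against NP 1.03 (exact) and 1.02 (without single reads) and in RNAi against Ov199 1.10 (20 to 24 nt), for miR393 in RNAi against NP 0.996 (TMM), 0.886 (exact), 0.934 (known precursor totals) and 0.908 (20 to 24 nt), and for miR394 in RNAi against NP 1.07 (exact). The totals shifted all log2 folds alike, by 0.24 (adapter-trimmed) and 0.13 (TMM) in Ov199 against NP, by -0.27 (adapter-trimmed), -0.18 (TMM) and -0.11 (known precursor totals) in RNAi against Ov199, and by -0.14 (known precursor totals) in RNAi against NP. No paired analysis was possible because each line has 1 library, and no replicate could be left out. Counting error limits miR172 and miR394 most, with 4 to 19 reads in a library.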

Other observations

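Some single 3′ arm sequences of miR160 and miR390 were found in the Ov199 library alone. They were chosen after their values were seen and had too few reads to be tested one by one. The miR160 3′ sequence gCGTGCAAggagccaagcatg had 8 reads in Ov199 and 0 in RNAi and NP, and the miR390 3′ sequence cGCTATCTatcctgagctcc also had 8, 0 and 0. With 3 reads taken as the floor for a count of 0, each was 1.40-fold higher in Ov199 than in NP. On the same floor each was 1.78-fold lower in RNAi than in Ov199. These values leave out the counting error of the 8 Ov199 reads, so they are not lower limits. The whole 3′ arms were not limited to Ov199, with 9 reads in Ov199, 8 in RNAi and 3 in NP for miR160, and 10, 2 and 2 for miR390, of which the miR390 seed GCTATCT had 10, 0 and 2. Reads of miR172 with the seed GAATCTT, which the known mature form carries, were 7 in Ov199 and 0 in RNAi and NP, while its whole 3′ arm had 8, 0 and 1. Ov199 was also the library with the most aligned reads, and the part of this depth in these counts was not tested. It held the most distinct sequences too, 7692 beside 6238 in RNAi and 5742 in NP. The share of all sequences read in Ov199 alone is not given here, so these sequences cannot be called particular to their families.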
